A study of Drosophila melanogaster with 4 samples.

Results

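The LTR retrotransposons mdg3, invader3 and invader4 are 3 of the 124 transposons, and of the 150 reference sequences, to which the deposited reads were assigned. They were taken by name, and were chosen by their read numbers and by the positions of their read ends in these same libraries: earlier results had shown that many of their reads end far upstream of the 3' end of the element in cultured follicle cells. Their read totals and the place where their reads end are therefore described here, and they are not offered as independent evidence.

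Poly(A) RNA of *Drosophila melanogaster* was sequenced directly on an Oxford Nanopore device, with 1 library in each of 4 groups. The ovary groups were Tj-GAL4>vretenoGD, in which a hairpin reduces *vreteno*, and Tj-GAL4>arrestin2GD, the control hairpin. Both carry the same driver, which works in ovarian somatic cells, so germ cells make up much of the tissue but are not targeted. The other groups were ovarian somatic cells (OSCs), a follicle cell line grown in culture, given siPIWI or, as the control, siGFP. *vreteno* encodes a Tudor-domain protein of piRNA production, and *piwi* encodes the nuclear Argonaute protein that piRNAs guide to transposon transcripts. The study asked about transposon RNA once this silencing is lowered in the soma.

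LTR retrotransposons have a long terminal repeat at either end. Their RNA starts in the 5' repeat and receives its poly(A) tail in the 3' repeat, so a full-length RNA ends close to the 3' end of the element. All 3 elements belong to the Ty3/gypsy superfamily, whose *gag* gene encodes the particle protein and whose *pol* gene encodes the protease, reverse transcriptase, RNase H and integrase. mdg3 is known as a member without the *env* gene that marks the endogenous retroviruses of that superfamily. piRNAs restrain such elements in follicle cells as well as in germ cells, and different elements are controlled in different cells.

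Each count in the files was read as a read whose 3' end lies at that position of the consensus sequence, as the values show few filled positions rather than continuous coverage. No label states what a count is. Few filled positions do not tell 3' ends from other single points of a read, so that reading is an assumption throughout. The transposon reads numbered 5156 in vreteno knockdown ovaries, 2382 in control ovaries, 164243 in siPIWI OSCs and 57045 in siGFP OSCs. The ovary values are much the less precise. With 1 library per group no test between conditions was possible, so every interval below is a 95% interval for counting error and says nothing of the spread between cultures or animals. In bulk samples, fewer cells of a type and less RNA per cell cannot be told apart. The knockdown of *vreteno* or *piwi* itself was not analysed here.

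mdg3 and invader4 were abundant in OSCs, and invader3 was present at a lower level. mdg3 had 37 reads in vreteno knockdown ovaries, 23 in control ovaries, 1647 in siPIWI OSCs and 852 in siGFP OSCs. It ranked 9th of the 124 transposons in siPIWI OSCs and 3rd in siGFP OSCs. invader4 had 2 reads in vreteno knockdown ovaries, 0 in control ovaries, 1432 in siPIWI OSCs and 703 in siGFP OSCs. invader4 ranked 11th in siPIWI OSCs and 4th in siGFP OSCs, but had almost no reads in either ovary library. invader3 had 5 reads in vreteno knockdown ovaries, 8 in control ovaries, 239 in siPIWI OSCs and 181 in siGFP OSCs. In the order of reads in siPIWI OSCs, mdg3 stood between Stalker2 with 2148 reads and flea with 1472, and its interval of 1568 to 1729 reads overlapped neither of theirs. invader4 followed directly after flea, and its interval of 1359 to 1508 reads overlapped that of flea, 1398 to 1549. invader3 lay between '1731' with 311 reads and DNAREP1 with 223 reads, and its interval of 210 to 271 reads overlapped that of DNAREP1 alone.

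**Figure D1:**
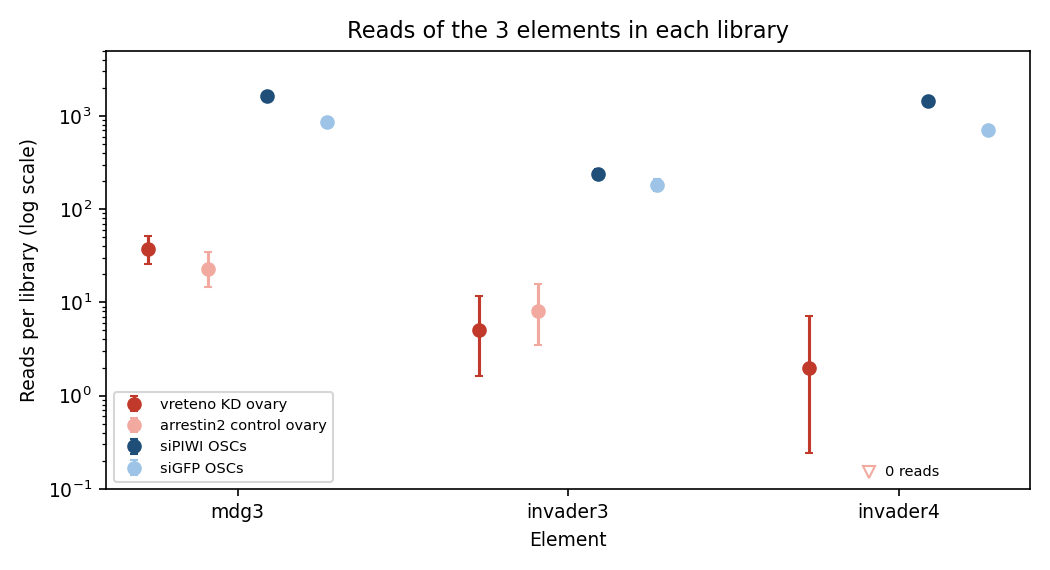
Reads of mdg3, invader3 and invader4 (x axis) in each of the 4 libraries (log y axis, reads per library, not scaled for depth). Points are 1 library each and bars are exact Poisson 95% intervals; the open triangle marks the library with 0 reads. OSC libraries hold more reads for all 3 elements, and were also far deeper.

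As a share of transposon reads, mdg3 differed by less than 2-fold between OSCs and ovaries, and invader4 was found almost only in OSCs. mdg3 made up 1.003% of transposon reads in siPIWI OSCs, against 0.718% in vreteno knockdown ovaries, a ratio of 1.40 (1.01 to 1.99). It made up 1.49% in siGFP OSCs, against 0.966% in control ovaries, a ratio of 1.55 (1.02 to 2.45). invader4 made up 0.872% in siPIWI OSCs, against 0.0388% in vreteno knockdown ovaries, a ratio of 22.5 (6.21 to 186). Its share was 1.23% in siGFP OSCs, against 0 of 2382 reads in control ovaries, with an exact upper limit of 0.155%. The exact lower limit of the ratio was 7.94. Set against a floor of 3 reads, or 0.126%, the share was 9.78-fold higher in siGFP OSCs. For invader3 the ratio of siGFP OSCs to control ovaries was 0.945 (0.469 to 2.22), so no difference was detectable at this depth.

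These shares depend on the retrotransposon copia, which took 52.9% of transposon reads in siPIWI OSCs and 73.2% in siGFP OSCs, against 17.5% in vreteno knockdown ovaries and 20.9% in control ovaries. Without copia, the ratio of siGFP OSCs to control ovaries was 4.57 (3.03 to 7.25) for mdg3 and 2.79 (1.39 to 6.57) for invader3. For invader4 its exact lower limit was 23.5, and on the same floor of reads it was 28.9. The ratio of siPIWI OSCs to vreteno knockdown ovaries was then 2.45 (1.77 to 3.49) for mdg3, 2.63 (1.11 to 8.17) for invader3 and 39.4 (10.9 to 326) for invader4. OSCs are a line of follicle cells, while ovaries also contain germ cells and other somatic cells, and line and tissue may differ in the copies they carry. The part of these differences in the values was not tested.

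With siPIWI, mdg3 and invader4 lay near the ratio of the typical transposon in OSCs, and invader3 lay below it. Libraries were compared after scaling by the median siPIWI over siGFP ratio of reads. It was 1.99, over the 54 transposons that reached 10 reads in each library. mdg3 had 1647 reads in siPIWI and 852 in siGFP OSCs, a scaled fold of 0.974 (0.896 to 1.06). invader4, with 1432 and 703 reads in the same libraries, had a fold of 1.03 (0.937 to 1.12). invader3, with 239 and 181 reads, had a fold of 0.665 (0.546 to 0.811). None of the 3 passed 4-fold in either direction, whereas 24.7% of the 73 transposons that reached 10 reads in the larger library were higher by 4-fold or more and 0% were lower by as much. An interval wholly below 1, as for invader3, was found for 15.1% of the 73.

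The position of mdg3 and invader4 near 1 rests on the choice of scaling. All 3 members were among the transposons that set the median. With the median taken over the other 51 transposons it was 2.04, against 1.99. Read numbers before scaling were higher in siPIWI OSCs for each of the 3 elements, by 1.93-fold for mdg3, 2.04-fold for invader4 and 1.32-fold for invader3. The uncertainty of the median adds a common factor of 0.754 to 1.28 to every fold in OSCs. Ratios between elements do not need any scaling. The siPIWI over siGFP ratio of invader3 was 0.683 times that of mdg3 (0.551 to 0.848), 0.648 times that of invader4 (0.521 to 0.808) and 0.635 times that of copia (0.521 to 0.774). mdg3 and invader4 did not differ detectably from each other in this ratio (0.949, 0.838 to 1.07), nor did they from copia (mdg3 0.929, 0.854 to 1.01; invader4 0.979, 0.893 to 1.07).

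In ovaries only mdg3 had enough reads for a ratio to be informative. It had 37 reads in vreteno knockdown ovaries, against 23 in control ovaries, a scaled fold of 1.78 (1.03 to 3.14) with a median ratio of 0.903 over 30 transposons. Of 45 transposons past the read minimum, 42.2% had an interval wholly above 1 and 24.4% were at least 4-fold higher, while 0% were lower by 4-fold. The common factor of 0.845 to 1.19 is not in the interval, and scaling to total transposon reads turned the direction (log2 ratio -0.41). The median log2 ratio of the 45 was 0.26, and that of mdg3 was 0.80. invader3 had 5 and 8 reads in vreteno knockdown and control ovaries (fold 0.692, 0.178 to 2.40), with no difference detectable at this depth. invader4 had 2 and 0 reads in these libraries, both under the floor of 3, and no fold is given.

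In OSCs most reads of all 3 elements ended in a main upstream zone or in a zone at the 3' end of the element. mdg3 has 5519 positions, invader3 5484 and invader4 3105. Ends were split at 70% of the length, into upstream ends and 3' ends. Upstream ends include any in the 5' repeat. The repeats were not located, so ends in the 5' and the 3' repeat were not matched to each other. Few reads lay near the limit of 70%. In siPIWI OSCs mdg3 had 5 reads between 60% and 70% of its length and 8 between 70% and 80%, invader3 had 0 and 1, and invader4 had 0 and 0.

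**Figure D2:**
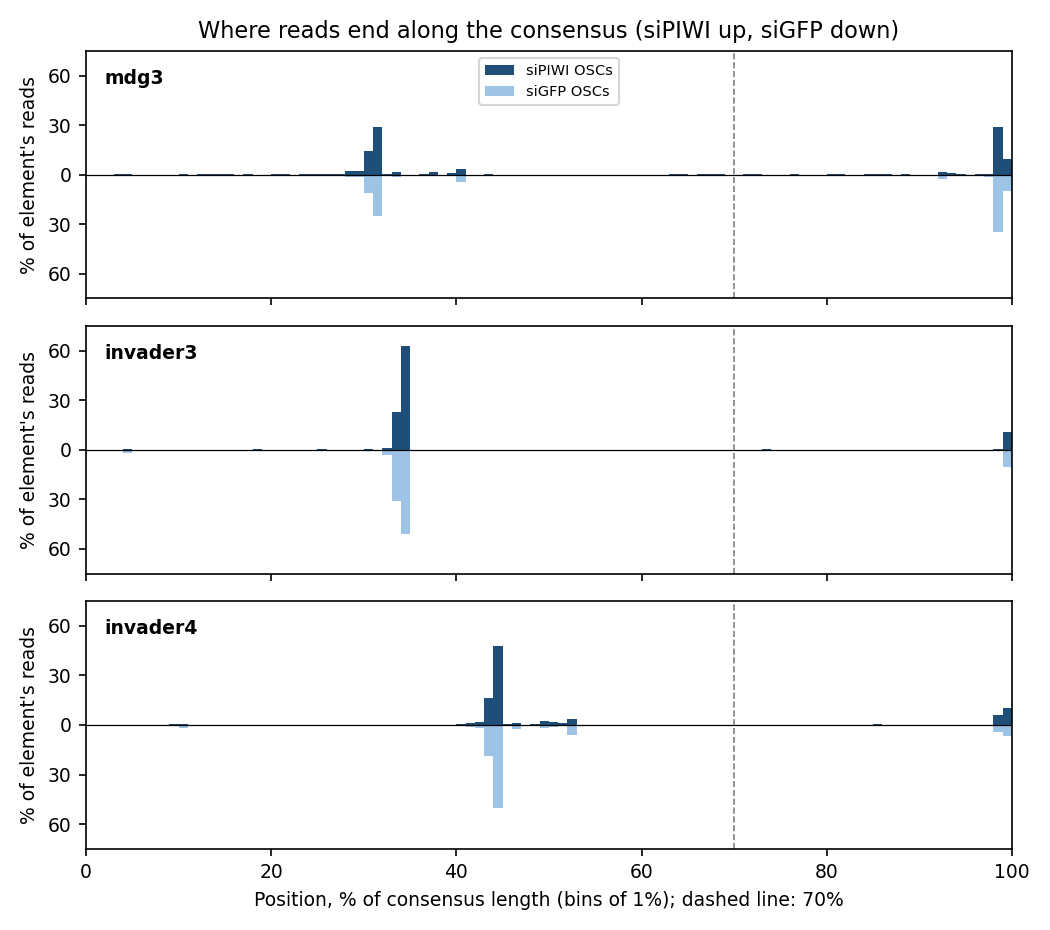
Share of each element's reads (y axis, %) that end in each 1% of its consensus length (x axis), with siPIWI OSCs drawn upward and siGFP OSCs downward. Each element has a main upstream zone, at about 31% of the length in mdg3, where it is broader, 34% in invader3 and 44% in invader4. Smaller upstream groups include those at 41.0% in mdg3 and at 49.8% and 52.7% in invader4. A second zone lies at the 3' end, and both libraries fill the same zones.

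Of the 3 elements, invader3 had the largest upstream part in OSCs, though its intervals overlapped those of invader4 in both libraries. Of invader3 reads, 211 of 239 in siPIWI OSCs and 161 of 181 in siGFP OSCs ended upstream. This left 11.7% (7.93 to 16.5) and 11.0% (6.88 to 16.5) at the 3' end. Its main upstream position was 1877 in siPIWI OSCs, with 63 reads, and 1879 in siGFP OSCs, with 34 reads. These positions are 2 nt apart and both were frequent in either library: position 1879 held 47 reads in siPIWI OSCs, and position 1877 held 30 in siGFP OSCs. Within 25 nt of position 1877 lay 68.6% (62.3 to 74.4) of invader3 reads in siPIWI OSCs and 59.1% (51.6 to 66.4) in siGFP OSCs. Within 25 nt of position 1839, a stretch that overlaps the first, lay 54 reads in siPIWI and 55 in siGFP OSCs. The 3' ends of invader3 centred on position 5452, 32 nt before the end of the consensus, with 27 reads within 25 nt in siPIWI OSCs and 18 in siGFP OSCs.

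invader4 had the sharpest upstream site. Position 1372 alone held 554 of its 1432 reads in siPIWI OSCs and 283 of 703 in siGFP OSCs, or 38.7% and 40.3%. Within 25 nt of it lay 62.6% (60.1 to 65.2) in siPIWI OSCs and 66.7% (63.1 to 70.2) in siGFP OSCs. Smaller upstream groups followed at position 1547, with 55 reads in siPIWI and 17 in siGFP OSCs, and at position 1636, with 67 and 44 reads in the same libraries. Its 3' ends centred on position 3082, 23 nt before the end, with 99 reads at that position in siPIWI OSCs and 35 in siGFP OSCs. In vreteno knockdown ovaries the 2 invader4 reads ended at positions 2740 and 2904. Neither OSC library had a read there, but these positions were defined by the 2 ovary reads.

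mdg3 divided its reads more evenly and over more positions. In siPIWI OSCs 944 reads ended upstream and 703 at the 3' end, and in siGFP OSCs 415 and 437. The upstream ends formed a broad zone rather than a single site. Position 1701 held 136 reads in siPIWI and 59 in siGFP OSCs, position 1744 held 114 and 43, position 1737 held 74 and 43, and position 1723 held 71 and 49. Within 100 nt of position 1701 lay 45.2% of mdg3 reads in siPIWI OSCs and 37.3% in siGFP OSCs. Smaller upstream groups lay outside this zone. Within 25 nt of position 2262 were 47 reads in siPIWI and 31 in siGFP OSCs, and within 25 nt of position 2075 were 26 and 8. The 3' ends had a main site at position 5447, 72 nt before the end of the consensus, with 300 reads in siPIWI and 192 in siGFP OSCs. A second site at position 5516, 3 nt before the end, held 122 reads in siPIWI and 55 in siGFP OSCs. The number of equally used positions that would give the same concentration of reads (the inverse Simpson index) was 16.4 in siPIWI and 13.3 in siGFP OSCs for mdg3. It was 7.98 and 11.5 in these libraries for invader3, and 5.87 and 5.49 for invader4.

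The OSC libraries placed their ends alike. The share of reads common to both profiles, taken position by position, was 79.4% for mdg3, 77.1% for invader3 and 84.4% for invader4. In steps of 100 nt it was 88.5%, 93.1% and 91.1%. The exact main position of invader4 and of mdg3 was the same nucleotide in siPIWI and siGFP OSCs.

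Upstream ends outnumbered 3' ends in a minority of transposons. Of the 54 that set the scaling, 9 had under 50% of their ends in the last 30% in siPIWI OSCs and 13 in siGFP OSCs. invader3 and invader4 were under 50% in both libraries, and mdg3 was in siPIWI OSCs alone. Among 27 transposons that reached 50 reads in siPIWI and in siGFP OSCs, invader3 had the lowest share of 3' ends in siPIWI OSCs, followed by invader4, '1360' and mdg3. In siGFP OSCs mdg1 was lowest, at 6.74%, and invader3, invader4 and mdg3 were 2nd, 3rd and 7th. The median share over the 54 transposons was 86.8% in siPIWI and 76.6% in siGFP OSCs. The members were chosen partly for this feature, so their place in this order is a description.

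Relatives by name did not share one pattern. Of the 6 invader elements in the files, invader5 had 0 reads in all 4 libraries. invader1 had 84 reads in siPIWI and 51 in siGFP OSCs, a fold of 0.830 (0.579 to 1.20), and 95.2% and 100% of them ended in the last 30%. invader6 had 25 reads in siPIWI and 6 in siGFP OSCs (fold 2.10, 0.841 to 6.26), all in the last 30%. invader2 had 22 reads in siPIWI and 10 in siGFP OSCs (fold 1.11, 0.504 to 2.62), of which 9 and 6 ended in the last 30%. Of the mdg3 lineage, micropia had 14 reads in siPIWI and 3 in siGFP OSCs (fold 2.35, 0.656 to 12.8), of which 13 and 3 ended in the last 30%. None of these 4 had an interval clear of 1 in OSCs. In ovaries only invader1 passed the read minimum, with 12 reads in vreteno knockdown and 16 in control ovaries (fold 0.830, 0.359 to 1.87).

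With siPIWI, the balance between upstream and 3' ends moved in opposite directions in mdg3 and invader4. The share of mdg3 reads ending in the last 30% was 42.7% (40.3 to 45.1) in siPIWI OSCs, against 51.3% (47.9 to 54.7) in siGFP OSCs. The odds of a 3' end were 0.707 times as high (0.597 to 0.838). For invader4 the share was 17.3% (15.4 to 19.4) in siPIWI OSCs, against 12.2% (9.90 to 14.9) in siGFP OSCs, and the odds ratio was 1.50 (1.15 to 1.98). For invader3 it was 1.07 (0.558 to 2.08), with no difference detectable at this depth. The odds ratio of mdg3 was 0.471 times that of invader4 (0.345 to 0.643). These odds ratios compare ends within an element and need no scaling of the libraries.

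Among the same 54 transposons of the OSC libraries, 31.5% had an odds ratio interval above 1, as invader4 did, and 5.56% had one below 1, as mdg3 did. The 3 below 1 were mdg3, S2 and copia, named after their values were seen. The direction in mdg3 was the same without its main position: leaving out position 5447, the share of 3' ends was 29.9% in siPIWI and 37.1% in siGFP OSCs. Leaving out position 1372, the share for invader4 was 28.2% in siPIWI and 20.5% in siGFP OSCs.

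**Figure D3:**
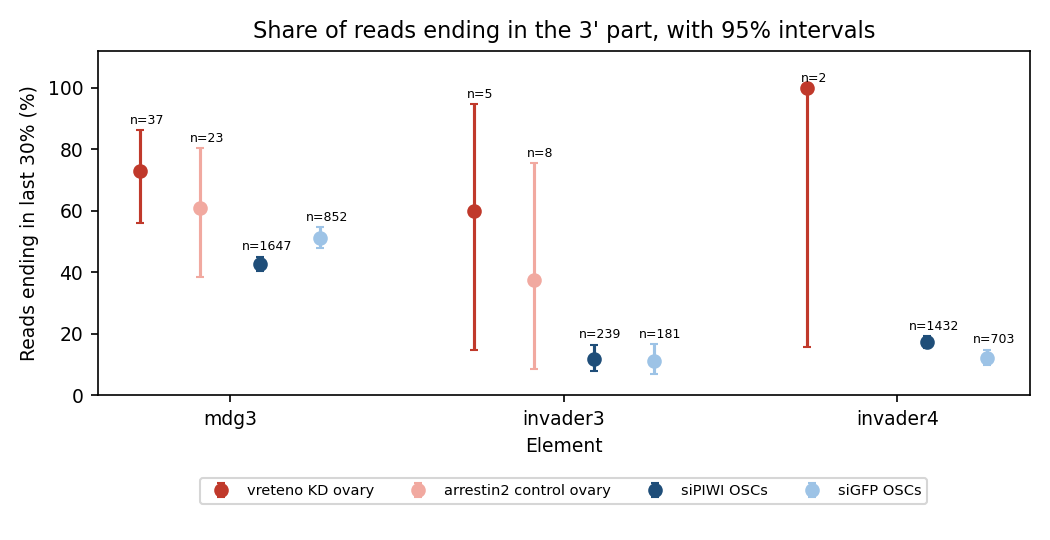
Share of reads ending in the last 30% of the consensus (y axis, %) for each element and library (x axis); points are 1 library each, bars are Clopper-Pearson 95% intervals and n is the number of reads. In OSCs the siPIWI point lies below the siGFP point for mdg3 (42.7% and 51.3%) and above it for invader4 (17.3% and 12.2%), while the ovary intervals are wide.

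The same counts can be given as separate folds, which restate the odds ratios above. Upstream ends of mdg3 had a scaled fold of 1.15 (1.02 to 1.29) in siPIWI over siGFP OSCs and its 3' ends one of 0.810 (0.718 to 0.915). Upstream ends of invader4 had a fold of 0.967 (0.876 to 1.07) and its 3' ends one of 1.45 (1.13 to 1.88). For invader3 the folds were 0.660 (0.535 to 0.816) upstream and 0.705 (0.383 to 1.32) at the 3' end. The common factor of the scaling applies to all of these, so the single folds of mdg3 are within its range of 1, and the contrast between the parts is what the libraries show.

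**Figure D4:**
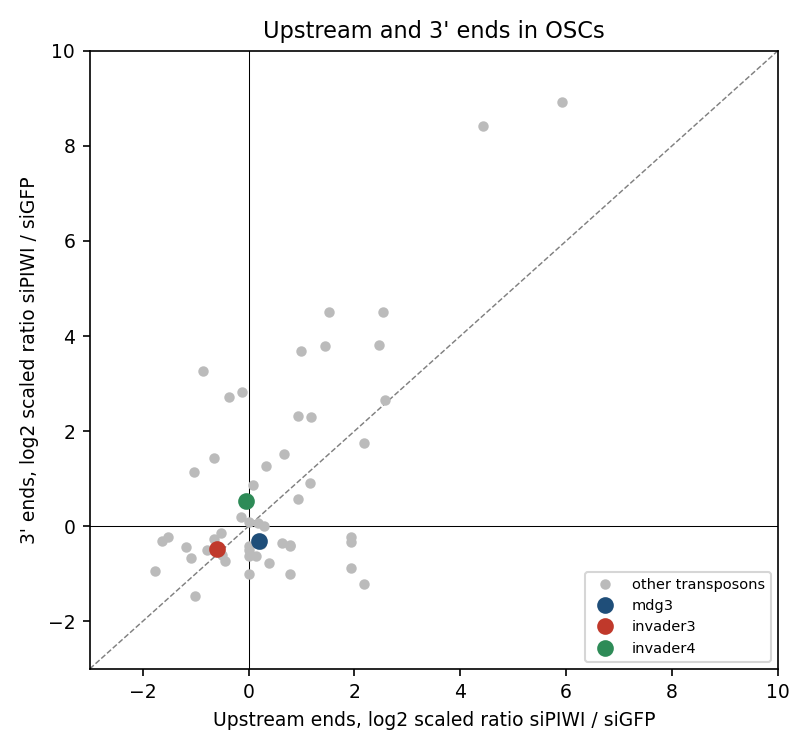
Log2 ratio of scaled reads, siPIWI over siGFP OSCs with a pseudocount of 1 read, for upstream ends (x axis) and 3' ends (y axis) of the 54 transposons that reached 10 reads in each library. On the dashed line both parts changed alike; mdg3 lies below it (0.20 and -0.30), invader4 above it (-0.05 and 0.53) and invader3 close to it, and points of transposons with few reads in a part depend on the pseudocount, those with 0 reads in both libraries lying at 0.

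Within mdg3 the folds of groups of ends (all reads within 25 nt of a position) ranged from 0.504 (0.266 to 0.954) around position 5117, with 22 reads in each OSC library, to 1.69 (0.969 to 3.10) around position 1599, with 57 reads in siPIWI and 17 in siGFP OSCs. The group around position 5447 had 467 reads in siPIWI and 300 in siGFP OSCs, a fold of 0.784 (0.677 to 0.910), and that around position 5516 had 135 and 68 reads, a fold of 1.0 (0.742 to 1.36). The upstream group around position 1744 had 473 reads in siPIWI and 213 in siGFP OSCs, a fold of 1.12 (0.9496 to 1.32). That around position 1701, which overlaps it, had 316 reads in siPIWI and 154 in siGFP OSCs, a fold of 1.03 (0.850 to 1.26). In invader4 the 3' group around position 3082 had 229 reads in siPIWI and 72 in siGFP OSCs (1.60, 1.22 to 2.12), while the upstream group around 1372 had 897 and 469 (0.963, 0.861 to 1.08). In invader3 the upstream group around 1839 had a fold of 0.495 (0.333 to 0.733), and that around 1877, with 164 reads in siPIWI and 107 in siGFP OSCs, one of 0.772 (0.602 to 0.995). The groups were placed by their reads in siPIWI OSCs, which favours that library.

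In ovaries the most used 3' ends of mdg3 lay at other nucleotides than in OSCs. At position 5447, which held 300 of 703 3' ends in siPIWI OSCs and 192 of 437 in siGFP OSCs, vreteno knockdown ovaries had 0 of 27 and control ovaries 0 of 14. The exact upper limits of these zeros are 12.8% and 23.2%, against 42.7% and 43.9% in siPIWI and siGFP OSCs. The most used 3' position in vreteno knockdown ovaries was 5482, 37 nt before the end of the consensus, with 9 reads. In control ovaries it held 3 reads, as did position 5459. Position 5482 held 15 of 703 3' ends in siPIWI OSCs and 7 of 437 in siGFP OSCs, or 2.13% (1.20 to 3.49) and 1.60% (0.646 to 3.27). In vreteno knockdown ovaries its share was 33.3% (16.5 to 54.0), and in control ovaries 21.4% (4.66 to 50.8). Position 5516, the second OSC site, was also used in ovaries. It held 3 of 27 3' ends in vreteno knockdown and 1 of 14 in control ovaries, against 122 of 703 in siPIWI and 55 of 437 in siGFP OSCs.

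A further set of 3' ends, from 120 to 220 nt before the end, held 7 of 27 reads in vreteno knockdown ovaries and 3 of 14 in control ovaries. It held 7 of 703 in siPIWI OSCs and 12 of 437 in siGFP OSCs. The ovary reads in this stretch were at 7 positions from 5324 to 5373, and neither OSC library had a read at any of these 7. The 7 were defined by their ovary reads and OSCs had few reads in the stretch, so no conclusion is drawn from that absence. The most used single 3' positions of mdg3 thus differed between ovaries and OSCs in both pairs, although each ovary library rests on few reads. The wider 3' zone was shared. Within 50 nt of position 5447 lay 63.0% of 3' ends in vreteno knockdown and 71.4% in control ovaries. The values were 71.1% in siPIWI and 73.2% in siGFP OSCs. Within 100 nt they were 92.6% and 92.9% in these ovaries, and 90.2% and 90.4% in these OSCs. Position by position over all mdg3 reads, the ovary libraries had 40.7% in common with each other, and 79.8% in steps of 100 nt. Pooled OSCs and pooled ovaries had 27.6% in common, and 61.0% in steps of 100 nt. The pooled ovaries hold only 60 mdg3 reads, and the part of such low numbers in these overlaps was not tested. Positions were chosen after their values were seen. Which copies of mdg3 the flies and the cell line carry was not analysed here, and its part in the difference was not tested.

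**Figure D5:**
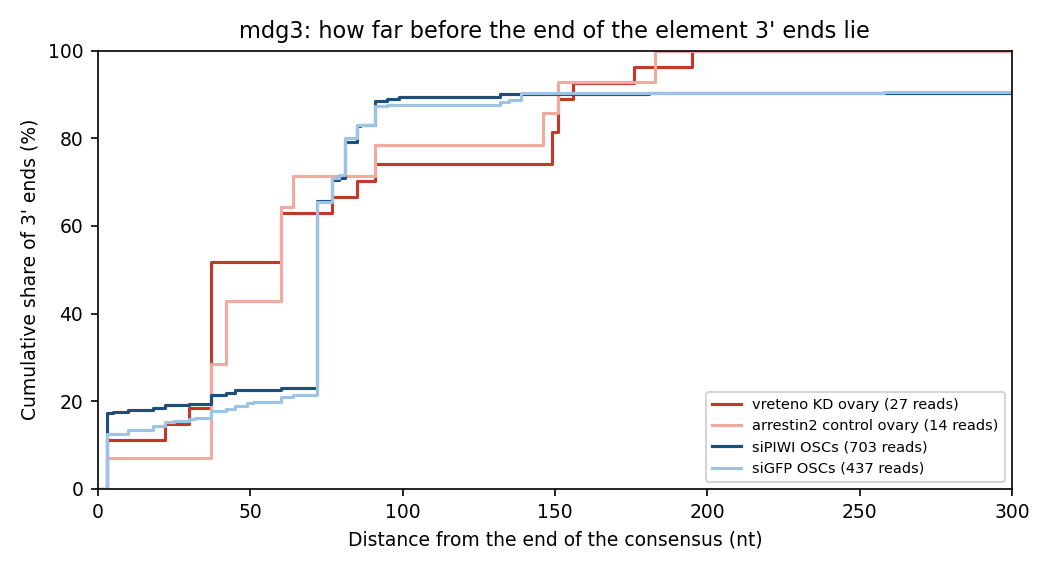
Cumulative share of mdg3 3' ends (y axis, %) against distance from the end of the consensus in nt (x axis, shown up to 300 nt) for each of the 4 libraries. All 4 lines climb at 3 nt. Both OSC lines take their largest step at 72 nt. Both ovary lines climb at 37 nt and 60 nt and again beyond 120 nt, with no step at 72 nt.

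Some ovary reads of mdg3 also ended in its upstream zone. Vreteno knockdown ovaries had 6 of 37 reads and control ovaries 5 of 23 in the groups around positions 1701 and 1744 together. Position 1701 itself held 0 and 1 of these reads, and position 1744 held 0 in each ovary library. Within 50 nt of position 1701 lay 16.2% (6.19 to 32.0) of mdg3 reads in vreteno knockdown ovaries and 21.7% (7.46 to 43.7) in control ovaries. The shares were 36.2% in siPIWI OSCs and 32.3% in siGFP OSCs. Of all mdg3 reads, 73.0% (55.9 to 86.2) ended in the last 30% in vreteno knockdown ovaries, against 60.9% (38.5 to 80.3) in control ovaries, an odds ratio of 1.72 (0.492 to 6.03). No difference was detectable at this depth, and 6.67% of 30 transposons had an odds ratio interval above 1 in ovaries. Upstream ends in the first 10% of the length numbered 2 of 10 in vreteno knockdown and 3 of 9 in control ovaries. Those in control ovaries were at positions 195, 207 and 230. Whether they belong to the 5' repeat was not tested. For invader3, position 1877 held 1 read in each ovary library and position 5452 held 2 reads in vreteno knockdown and 1 in control ovaries, the same nucleotides as in OSCs.

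Transposons whose shares differed most alike between libraries were sought by the distance between log2 shares of transposon reads, each centred on its own mean. Centring removes the level of a transposon, so near ones need not be alike in read number. Over all 4 libraries and 26 transposons, mdg3 was nearest to copia (distance 1.20 log2 units), then '1731' (1.37) and '297' (3.06). Over the OSC libraries alone and 54 transposons, invader4 was nearest to gypsy12 (0.003), '1360' (0.004) and copia (0.022). invader3 was nearest to HMS-Beagle and jockey (0.055 each) and Transpac (0.063). With only 2 libraries such a distance compares a single ratio, and many transposons lie close together on it.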

How the data were processed

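Per the labels' protocols, poly(A) RNA was selected with oligo(dT) beads and made into libraries with a direct RNA kit (RNA002). The authors deposited counts without normalization, 1 whole number per position of 150 reference sequences. Per the file headers, strand is not recorded. The submitters' processing notes name minimap2. How reads with several matches were treated, the aligner's settings and the reference set are not given in the sources used here.

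Counts were summed per element. The 26 sequences that are not transposons were kept apart. Folds are reads in the knockdown over the control library, divided by the median ratio of the transposons that reached 10 reads in each of the 2 libraries, with exact conditional 95% intervals. For log2 ratios (pseudocount of 1 read) this factor was split evenly over both libraries. Shares have Clopper-Pearson intervals and odds ratios conditional exact ones; the ratio of odds ratios between elements has a Wald interval. A count of 0 was set against a floor of 3 reads. Intervals cover counting error only and assume that each read was counted 1 time. Calculations used Python 3.11.15 with scipy 1.17.1. The scaling and the folds with their intervals were tested on simulated data, in which as many elements fell as rose. In the OSC libraries 18 transposons were at least 4-fold higher and 0 lower, an unbalanced case that was not simulated. Odds ratios and shares of ends were not simulated either. Alternatives were other scalings, pseudocounts, read minimums, limits of the 3' part and windows. The named transposons were the 3 elements, the other invader elements and mdg3 relatives (of which blastopia was not matched), the nearest by centred share and the neighbours in read number. Members and lists were chosen with earlier results of these data known.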

Additional observations from a re-analysis of the deposited data

Results flagged for a closer look

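For mdg3 the values in ovaries and OSCs had opposite signs by 2 measures. With 1 library per group neither difference was tested, and opposite movement is not shown. Its log2 ratio of scaled reads was -0.04 for siPIWI over siGFP OSCs, with an interval that includes 0, and 0.80 for vreteno knockdown over control ovaries, a difference of -0.84 (OSCs minus ovaries). The share of its reads ending in the last 30% changed by -8.61 percentage points in siPIWI relative to siGFP OSCs and by 12.1 points in vreteno knockdown relative to control ovaries, a difference of -20.7 points (OSCs minus ovaries). The ovary log2 ratio turned to -0.41 with scaling to total transposon reads, and the ovary odds ratio of 3' ends had an interval of 0.492 to 6.03. The ovary values rest on 37 reads in the knockdown and 23 in the control library. In control ovaries 3 of the 9 upstream ends lay in the first 10% of the length, against 2 of 10 in vreteno knockdown ovaries. The share of 3' ends counts these as upstream, even where they may lie in the 5' repeat. The part of depth, and of the germ cells that ovaries hold and OSCs do not, was not tested.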

How the results depend on the processing

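No paired analysis was possible because each group had 1 library, and for the same reason no library could be left out. The folds depend on the scaling. Scaling to total transposon reads gave log2 ratios in OSCs of -0.57 for mdg3, -1.12 for invader3 and -0.50 for invader4, and reversed mdg3 in ovaries to -0.41. Scaling to transposon reads without copia gave -1.39, -1.93 and -1.31 in OSCs and -0.47 for mdg3 in ovaries. Without scaling the OSC values were 0.95, 0.40 and 1.03, which reversed invader3. These totals include the elements that rose most in the knockdown libraries. For 3' ends alone the OSC values were -0.30 for mdg3 and 0.54 for invader4, and for upstream ends alone 0.20 for mdg3. Other settings, including scaling to sequences that are not transposons and the median without the 3 elements (added after seeing the data), kept these values within their counting intervals.

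The count of transposons at least 4-fold higher in ovaries, 11, was 7 with a minimum of 30 reads, 7 with total scaling, 7 with a pseudocount of 10 and 19 under a 2-fold rule. The count at least 4-fold lower, 0, was 1 with no minimum and 2 with total scaling. In OSCs the 2-fold rule gave 28 higher and 4 lower. Shares of transposon reads without copia in siPIWI and siGFP OSCs were 2.13% and 5.58% for mdg3, 0.309% and 1.19% for invader3, and 1.85% and 4.60% for invader4. The share of 3' ends did not leave its interval with limits at 60%, 80% or 90% of the length. Without the position with most reads it was 29.9% and 37.1% in siPIWI and siGFP OSCs for mdg3 and 28.2% and 20.5% for invader4, in the same direction as before.

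Shares in a group of ends follow the width of its window. Around the main upstream position of mdg3, siPIWI and siGFP OSCs had 11.3% and 9.04% within 10 nt, 36.2% and 32.3% within 50 nt, and 45.2% and 37.3% within 100 nt (a width added after seeing the data). Within 10 nt vreteno knockdown ovaries had 0% and control ovaries 4.35%. Around its main 3' position the OSC values were 23.9% and 30.3% within 10 nt, 30.4% and 37.6% within 50 nt, and 38.5% and 46.4% within 100 nt. The values there in vreteno knockdown and control ovaries were 2.70% and 4.35% within 10 nt, 45.9% and 43.5% within 50 nt, and 67.6% and 56.5% within 100 nt. Upstream in invader3, siPIWI and siGFP OSCs had 59.4% and 49.2% within 10 nt, 84.9% and 80.1% within 50 nt, and 86.6% and 84.5% within 100 nt. Upstream in invader4 they had 54.7% and 59.7% within 10 nt, 69.6% and 74.5% within 100 nt, and siPIWI OSCs 65.4% within 50 nt. At the 3' end of invader4 siPIWI OSCs had 12.0% within 10 nt. These values changed with the width of the window, and no cause was tested.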
